A study of Mus musculus with 12 samples.

Results

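The genes described here are 40 named genes of distal mouse chromosome 12 that lie near the immunoglobulin heavy chain locus, the locus disrupted in uMT mice. They were taken from a fixed list of gene symbols, and all 40 had a probe that was well above background on at least 2 of 12 arrays, among 25741 features tested and 13884 named genes. The list was set by chromosome position, but it was made with earlier results of these data known. All 40 lay on the proximal side of the locus in the order of tested genes. They were set against 36 other tested genes of the same stretch of chromosome, 381 tested genes of the rest of chromosome 12 and 13427 tested genes of other chromosomes.

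The series measured gene expression in mouse CD8+ T cells with 12 Agilent arrays of 1 colour, each carrying Cy3-labelled RNA of 1 sample from female C57BL/6 mice. Samples of total CD8+ T cells were taken from 2 sites, the peripheral (PLN) and the mesenteric lymph nodes (MLN), with 4 wild type arrays (WT, 2 from each site), 2 arrays labelled AID KO (1 from each site) and 2 labelled uMT (1 from each site). The naive cells, CD44 low, were from PLN only and had been split by sorting on Sca-1 into the fractions labelled Sca1p (positive) and Sca1m (negative), with 1 array of each fraction for AID KO and 1 for uMT, and no WT array. AID is an enzyme of B cells, and uMT mice lack mature B cells. The labels give no age and do not say whether animals were pooled. The submitters state that there were no replicates. Each p-value below therefore sets a difference against the scatter of the arrays about the additive terms of a fit. That scatter is not a spread between replicate animals. Genotypes are those of the labels, so AID KO below always means the arrays so labelled.

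The heavy chain locus encodes the heavy chains of antibodies, and the uMT mutation removes the membrane form of the mu chain, without which B cell precursors do not mature. The neighbouring genes have no common pathway: they include kinases, transcription factors, LIM-domain proteins, chaperones and trafficking proteins, many of them active in T cells. Genes close to a targeted locus are inherited together with it, which is why a stretch of this kind is read as a unit when a mutant line is compared with WT. In CD8+ T cells the heavy chain locus itself is not used to make antibody.

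Levels are log2 processed signals minus the array's 75th percentile, so a level of 0 is a signal at that percentile, and differences are on the log2 scale with the standard error of the fit. The arrays stood on 3 slides: each of the first 2 slides held 2 WT arrays, 1 AID KO array and 1 uMT array of total cells, and the third held the 4 naive arrays. Between 50.1% and 56.8% of spots were well above background. The gene for Sca-1, Ly6a, was split by the sort, at 3.87 and 3.40 in Sca1p cells against 0.03 and -0.10 in Sca1m cells. CD8 T cell markers were high on every array, with a summed level over 7 tested genes of 715 to 989, where 1 is the 75th percentile. Of 15 B cell markers 7 could be tested, and Ms4a1 was not among them because it was not well above background on 2 arrays. The summed B cell level was 4.83 to 5.98 on WT arrays, 7.47 and 7.67 on the AID KO arrays and 5.48 and 6.42 on the uMT arrays of total cells, and in naive cells 5.75 and 7.66 for AID KO against 4.81 and 5.30 for uMT. Cd79b alone made 76.4% to 88.2% of that sum in total cells. Gene by gene, 1 of the 7 B cell markers was above WT in uMT, with a median difference of -0.27, and 0 of 7 were above AID KO in total cells, with a median of -0.80. In naive cells 2 of 7 were above AID KO, with a median of -0.45, and limma called none of the 7 in any of these comparisons. The summed level of 8 memory CD8 T cell genes was 163 to 193 on WT arrays, 179 and 185 on AID KO arrays and 198 and 209 on uMT arrays, and Ly6c2 made 44.8% to 53.3% of it in total cells. The memory genes went both ways, with 4 of 8 above WT in uMT and a median difference of -0.01. The summed level of 2 erythroid genes, Hba-a1 and Hba-a2, was highest on the uMT array at both sites: 1.19 in PLN against 0.145 and 0.417 in WT and 0.347 in AID KO, and 8.08 in MLN against 2.63 and 4.04 in WT and 1.73 in AID KO. Their median difference from WT was 1.79, both were also above AID KO in total cells, and neither gene was called. Of 10 heat shock and handling genes 8 were above AID KO in uMT in total cells, with a median difference of 0.15 and 2 of the 10 called. In uMT 6 of the 10 were above WT, with a median of 0.08 and 0 called. In AID KO 1 of the 10 was above WT, with a median of -0.19 and 2 called. The part of these markers in the results below was not tested, and fewer cells of a type cannot be told apart from less RNA per cell. No heavy chain segment could be named among the tested probes, so the disrupted gene itself was not measured here.

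Of the 40 genes limma called 1, Crip1, in a comparison with uMT. By an unadjusted limma p under 0.05, the members' share was above that of all features in uMT versus WT, 25% against 17.8%. The other distal genes of the same stretch did not share this, with 5 of 36, or 13.9%. Against AID KO the shares of members and of all features were close, 15% against 12.3% in total cells and 10% against 8.9% in naive cells. The members' share outside the range was lower in total cells, 5% against 9.49%, and close in naive cells, 33.3% against 30.9%. In total cells, limma with Benjamini-Hochberg adjustment called 0 of 40 in uMT versus WT, where 0.035% of all features were called. At an unadjusted p under 0.05 the same limma fit gave 10 of 40, or 25%, against 17.8% of all features, and 5 of the 10 were higher and 5 lower in uMT. These 10 were Jag2, Vrk1, Nudt14, Wdr20 and Ppp2r5c, which were higher, and Crip1, Mta1, Bcl11b, Papola and Dync1h1, which were lower. The count of 0 became 1, Crip1 each time, under 4 of the 9 other settings that kept every array. The median difference over the 40 genes was 0.03 and their median absolute difference 0.16. Over all features these values were 0.00 and 0.18, and over named genes of other chromosomes 0.02 and 0.15.

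In uMT versus AID KO, total cells, 1 of 40 was called, against 0.315% of all features, and it was Crip1. At an unadjusted p under 0.05 there were 6 of 40, or 15%, against 12.3% of all features: Crip2, Ckb and Gpr132 were higher and Crip1, Papola and Zfyve21 lower in uMT. In uMT versus AID KO, naive cells, the called gene was again Crip1, 1 of 40 against 0.35% of all features. At an unadjusted p under 0.05 Crip2 and Tmem121 were higher and Crip1 and Zfyve21 lower, 4 of 40 or 10%, against 8.9%. The comparisons of uMT with WT and with AID KO in total cells share the uMT arrays, so a gene that recurs in both is not seen there independently. The naive arrays are other samples.

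In AID KO versus WT, neither of which carries the uMT change, limma called 0 of 40 genes after adjustment, against 0.894% of all features. At an unadjusted p under 0.05 there were 4 of 40, or 10%, against 14.4%: Nudt14, Zfyve21 and Cdca4 were higher and Ckb lower in AID KO. The adjusted count was also 0 under every other setting tried, including the left-out arrays. Crip1 differed by 0.17 ± 0.11 there, with an adjusted p of 0.555.

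**Figure D1:**
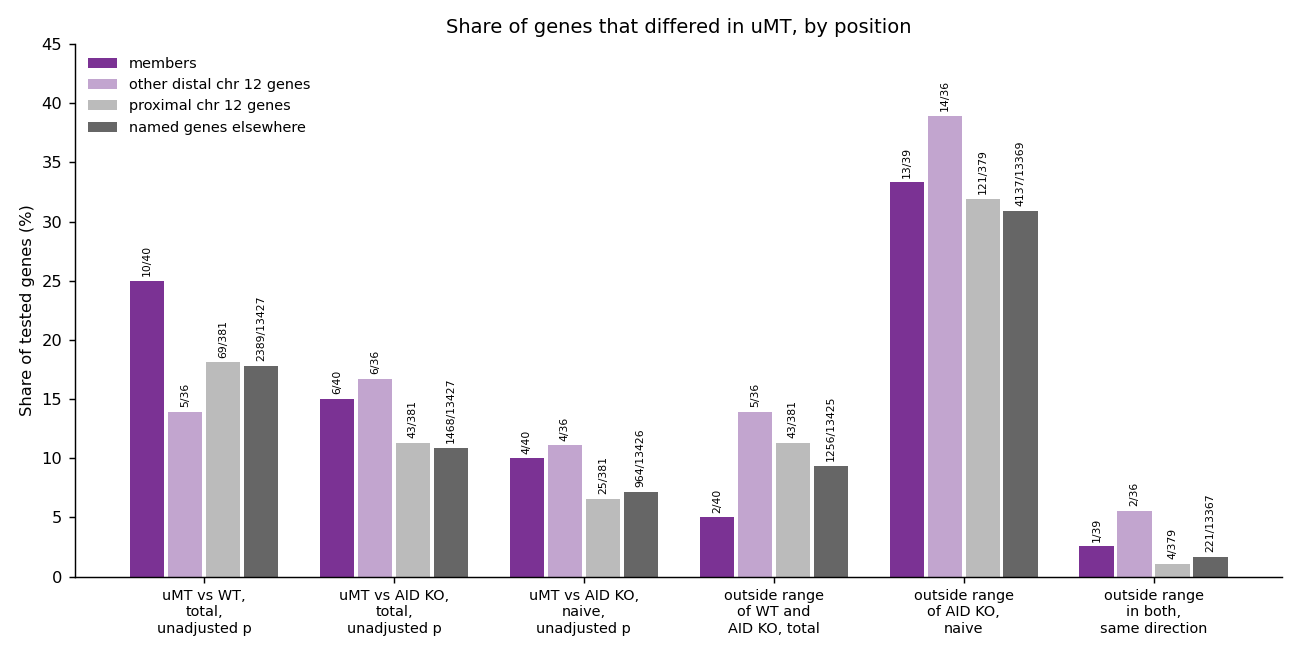
Share of tested genes (%, vertical axis) that met each of 6 rules for a uMT difference, for the 40 members, the 36 other distal genes, the 381 proximal genes of chromosome 12 and the named genes of other chromosomes, with the counts above the bars. By the unadjusted p in uMT versus WT the share was 25% of members, 17.8% of genes elsewhere and 13.9% of the other distal genes. By the range rule in total cells it was 5%, 9.36% and 13.9%.

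A second reading used no model and asked whether both uMT arrays lay outside the range of the other genotypes, at the brightest probe of each gene. In total cells 2 of 40 genes did, Crip1 and Papola, both below all 6 WT and AID KO arrays. This is 5% of the members, against 9.49% of all features. With the uMT PLN array alone the count was 13 of 40, against 27.0% of all features, and with the uMT MLN array alone it was 16 of 40, against 39.6%. Without the AID KO MLN array 5 of 40 lay outside, against 13.3%. In naive cells 13 of 39 genes lay outside the range of the 2 AID KO arrays, 7 above and 6 below, or 33.3% against 30.9% of all features. Xrcc3 was not counted there because its spot on the AID KO Sca1p array carried an outlier flag. Leaving out 1 naive array at a time gave 22 to 28 genes, against 60.8% to 69.7% of all features. Outside the range in both cell populations and in the same direction was 1 of 39 members, Crip1, or 2.56%, against 1.45% of all features and 1.65% of named genes on other chromosomes.

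Crip1 encodes a small cysteine-rich protein with a LIM domain, a zinc-binding fold that mediates protein contacts. It was read by 1 probe that was well above background on all 12 arrays. Its level was 6.24 and 6.38 on the WT PLN arrays, 6.14 and 6.47 on the WT MLN arrays, and 6.48 on both AID KO arrays of total cells. On the uMT arrays of total cells it was 5.32 in PLN and 5.39 in MLN. In naive cells it was 6.72 and 6.49 in the Sca1p and Sca1m fractions of AID KO, and 5.43 and 5.15 in the same fractions of uMT. All 4 uMT arrays were lower than all 8 others, and the groups did not overlap.

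The difference in Crip1 was -0.95 ± 0.11 in uMT versus WT, a 1.94-fold lower level, with an adjusted p of 0.0675 by limma. It was -1.13 ± 0.12 in uMT versus AID KO in total cells (2.18-fold lower, adjusted p = 0.0419) and -1.31 ± 0.12 in naive cells (2.48-fold lower, adjusted p = 0.0255). Crip1 therefore passed the threshold in both comparisons with AID KO and missed it against WT. Within the slides, the uMT array was 0.75 below the WT MLN array of slide 1 and 1.06 below the WT PLN array of slide 2. Within the naive fractions it was 1.29 below in Sca1p and 1.34 below in Sca1m cells. The naive difference minus the total difference was -0.19 ± 0.17 (adjusted p = 0.773), and the MLN difference minus the PLN difference was 0.31 ± 0.21 (adjusted p = 0.645), so neither dependence was detected.

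The sign of the Crip1 difference held in all 17 other settings of each total-cell comparison and all 12 of the naive one, from -1.14 to -0.80 against WT, -1.28 to -0.97 against AID KO in total cells and -1.34 to -1.15 in naive cells. The call did not hold in the same way. Against AID KO in total cells the adjusted p was 0.0728 to 0.496 when any 1 of the 8 total-cell arrays was left out, and 0.536 with matched pairs of arrays as blocks. In naive cells it was 0.0740 to 0.0883 when any 1 of the 4 naive arrays was left out. Against WT it was 0.0148 with normexp background correction, 0.0407 with quantile normalization, 0.0381 with the authors' deposited log2 values and 0.0377 with the stricter filter. Crip1 passed against WT under only these 4 of the 17 other settings. In naive cells it passed under 6 of the 12 other settings, and the highest adjusted p by limma was 0.487. On chromosome 12 Crip1 ranked 11 of 457 tested genes from the lowest difference in uMT versus WT, and 6 of 457 in the naive comparison, so other genes of the chromosome had larger differences.

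**Figure D2:**
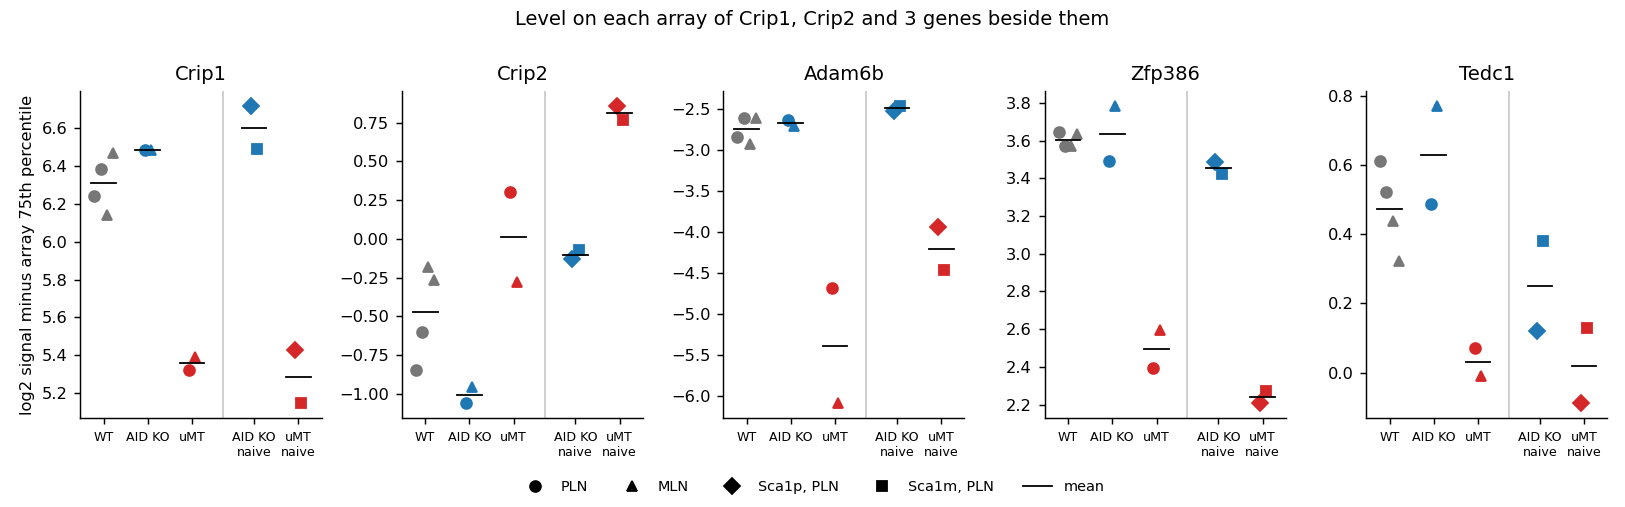
Level of Crip1, Crip2, Adam6b, Zfp386 and Tedc1 on each of the 12 arrays (log2 signal minus the array's 75th percentile, vertical axis, a separate scale for each gene), grouped by genotype and cell population. Horizontal lines are group means. The uMT points of Crip1, Adam6b and Zfp386 lie below all others of the same population, and those of Crip2 lie above in naive cells only.

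Crip2, the neighbour of Crip1, which encodes another cysteine-rich LIM protein, did not follow it. In total cells its level was -0.85 and -0.60 on the WT PLN arrays, -0.18 and -0.26 on the WT MLN arrays, -1.06 and -0.96 on the AID KO arrays from PLN and MLN, and 0.30 and -0.28 on the uMT arrays from PLN and MLN. The naive arrays read -0.13 and -0.07 in AID KO against 0.86 and 0.77 in uMT. The uMT PLN array was the highest of the total-cell arrays, the uMT MLN array lay among the WT arrays, and both naive uMT arrays were above both AID KO arrays. None of the differences passed the threshold: 0.49 ± 0.22 against WT (adjusted p = 0.311), 1.02 ± 0.25 against AID KO in total cells (adjusted p = 0.213) and 0.91 ± 0.25 in naive cells (adjusted p = 0.320). Without the uMT PLN array the difference from WT was -0.01, so its direction rested on that array. The 2 LIM genes thus had opposite signs in uMT, with only the fall of Crip1 called.

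The genes nearest to the heavy chain locus were then read in chromosome order. Among the tested genes Crip1 was the third from the locus on its proximal side, with Tedc1 and Tmem121 between, Crip2 was the fourth and Mta1 the fifth. Adam6b lies inside the locus, and Zfp386 is the first tested gene beyond it. Neither is a member of the 40, and they are given here because the Crip1 result is read beside them. Of the 76 tested distal genes, each read by its brightest probe, 3 lay outside the range in both cell populations in the same direction, against 1.45% of all features. These were Crip1, Adam6b and Zfp386, all lower in uMT. All 3 were among the 11 tested genes within 5 positions of the locus, a window chosen after the values were seen.

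Adam6b, a testis-expressed member of the ADAM family that resides within the heavy chain locus, was dim, with levels of -2.85, -2.61, -2.92 and -2.61 on the 4 WT arrays and -2.63 and -2.70 on the AID KO arrays. On the uMT arrays Adam6b was -4.68 in PLN and -6.09 in MLN, and only 1 of these 2 was well above background. The naive levels were -2.52 and -2.47 in AID KO against -3.94 and -4.47 in uMT. Every uMT array was lower than every other array. The differences were -2.64 ± 0.24 against WT (adjusted p = 0.0571), -2.72 ± 0.28 against AID KO in total cells (adjusted p = 0.0380) and -1.71 ± 0.28 in naive cells (adjusted p = 0.104). With normexp the difference from WT was -0.94, with an adjusted p of 0.0140, so the size of this fall depended on the background correction.

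Zfp386, a zinc finger protein gene, was bright on all 12 arrays. Its level was 3.64, 3.57, 3.57 and 3.63 on the WT arrays, 3.49 and 3.78 on the AID KO arrays, and 2.40 and 2.59 on the uMT arrays from PLN and MLN. The naive levels were 3.49 and 3.42 in AID KO and 2.21 and 2.27 in uMT. The 4 uMT arrays again lay below all others. The differences were -1.11 ± 0.10 against WT (adjusted p = 0.0571), -1.14 ± 0.12 against AID KO in total cells (adjusted p = 0.0380) and -1.22 ± 0.12 in naive cells (adjusted p = 0.0288). Leaving out any 1 of the 8 total-cell arrays ended the call in total cells for both Adam6b and Zfp386, as it did for Crip1. With the matched pairs of arrays as blocks the differences from AID KO in total cells were -2.68 for Adam6b (adjusted p = 0.455) and -1.07 for Zfp386 (adjusted p = 0.512), so these calls were lost too, and the calls over all features went from 81 to 1.

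None of the other close neighbours was called. Tex22, a testis-expressed gene 6 positions from the locus, was dim, at -4.41 and -5.40 on the WT PLN arrays, -4.24 and -4.39 on the WT MLN arrays, -4.78 and -4.96 on the AID KO arrays, and -5.81 and -5.37 on the uMT arrays from PLN and MLN, neither of them well above background. Its measured difference from WT, -0.98 ± 0.43 (adjusted p = 0.306), was as large as that of Crip1, but 1 WT PLN array lay between the uMT arrays. Within the slides the uMT array of Tex22 was 1.13 below WT in MLN and 0.41 below in PLN. In naive cells its difference was 0.00. Beyond the locus, Ncapg2, a condensin subunit, was higher in uMT than in WT by 0.64 ± 0.17 (adjusted p = 0.176) and than in naive AID KO by 0.70 ± 0.19 (adjusted p = 0.308), while Wdr60, a dynein subunit, was higher than AID KO in total cells by 0.61 ± 0.15 (adjusted p = 0.219) and than WT by 0.21. Tedc1, between Crip1 and the locus, was 0.61, 0.52, 0.44 and 0.32 on the WT arrays and 0.07 and -0.01 on the uMT arrays of total cells, a difference of -0.44 ± 0.13 (adjusted p = 0.192), and its naive arrays overlapped. Tmem121, a membrane protein gene next to the locus, differed by 0.11 ± 0.24 against WT in total cells (adjusted p = 0.827). In naive cells Tmem121 was -6.56 and -5.95 in AID KO and -5.28 and -5.81 in uMT, none of them well above background, so its difference of 0.71 ± 0.28 (adjusted p = 0.535) compares signals near the limit. Mta1, a subunit of the NuRD chromatin complex, was 0.59, 0.28, 0.62 and 0.20 on the WT arrays and 0.14 and -0.16 in uMT, where the AID KO MLN array, at 0.08, lay between. Its difference from WT was -0.44 ± 0.14 (adjusted p = 0.223), and in naive cells it was -0.03 ± 0.17. The difference from WT was -0.12 without the uMT MLN array and -0.76 without the uMT PLN array, and that from AID KO turned to 0.01 without the uMT MLN array. Pacs2, Btbd6 and Brf1, the next members along the chromosome, differed by -0.06, 0.05 and 0.01 from WT, and the second probe of Pacs2, dimmer, gave -0.48.

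**Figure D3:**
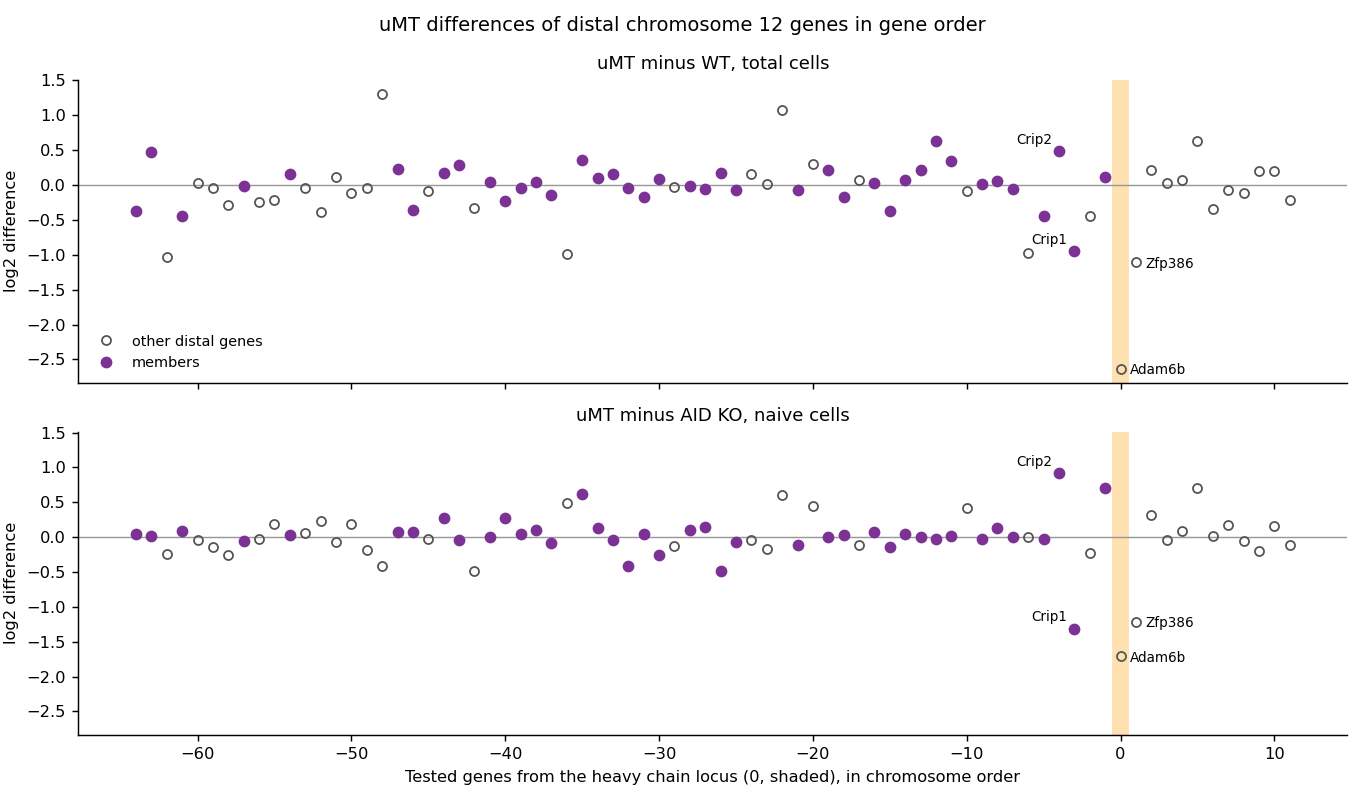
Difference of uMT from WT in total cells (upper) and from AID KO in naive cells (lower), on the log2 scale, for the 76 tested genes of distal chromosome 12 in chromosome order, with the heavy chain locus shaded at 0. Filled points are the 40 members and open points the other genes. Crip1, Adam6b and Zfp386 lie between -0.95 and -2.64 in total cells and between -1.22 and -1.71 in naive cells, while Crip2 lies above 0 in both.

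Of the 36 other distal genes, 5 lay outside the range in total cells, or 13.9%, against 9.49% of all features. These were Gm33682, Slc25a47, Tedc1, Adam6b and Zfp386, all below the range. Outside it in both populations in the same direction were 2 of 36, or 5.56%, against 1.45% of all features. Limma called 2 of 36 in uMT versus AID KO in total cells, Adam6b and Zfp386, against 0.315% of all features. In naive cells it called 1 of 36, Zfp386, against 0.35% of all features. In AID KO versus WT it called 1 of 36, Amn, against 0.894% of all features. This gene lies 36 positions from the locus and encodes amnionless, a subunit of the receptor that takes up vitamin B12. Amn was lower than WT by about as much in both genotypes, with a difference of -1.07 ± 0.15 in AID KO (adjusted p = 0.0448) and of -0.99 ± 0.15 in uMT, which missed the threshold (adjusted p = 0.0990). Its uMT difference from WT was thus as large as that of Crip1, and between uMT and AID KO it was 0.08 ± 0.17 (adjusted p = 0.906).

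The sequence before the start of the genes that carry the pattern is given from RefSeq on GRCm38.p6, the C57BL/6J reference, 250 bases on the plus strand up to the base before the annotated start. Capitals mark 3 motifs found on either strand: the GC box GGGCGG or CCGCCC, the TATA box TATAAA or TTTATA, and the CCAAT box CCAAT or ATTGG. Crip1 and its neighbour Crip2, which was not called, are shown first, then Adam6b and Zfp386. The windows are chr12:113151762-113152011, chr12:113139986-113140235 (the more upstream of 2 starts), chr12:113489315-113489564 and chr12:116047474-116047723.
Crip1: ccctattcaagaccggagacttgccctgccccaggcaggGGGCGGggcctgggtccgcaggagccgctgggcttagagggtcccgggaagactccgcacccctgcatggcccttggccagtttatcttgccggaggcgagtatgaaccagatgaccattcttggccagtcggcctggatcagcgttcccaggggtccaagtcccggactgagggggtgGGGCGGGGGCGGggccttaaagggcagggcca
Crip2: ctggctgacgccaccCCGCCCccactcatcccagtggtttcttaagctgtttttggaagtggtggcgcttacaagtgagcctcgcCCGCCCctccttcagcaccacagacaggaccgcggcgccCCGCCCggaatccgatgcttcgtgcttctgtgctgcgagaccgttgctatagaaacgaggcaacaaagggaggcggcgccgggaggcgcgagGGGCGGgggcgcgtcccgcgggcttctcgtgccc
Adam6b: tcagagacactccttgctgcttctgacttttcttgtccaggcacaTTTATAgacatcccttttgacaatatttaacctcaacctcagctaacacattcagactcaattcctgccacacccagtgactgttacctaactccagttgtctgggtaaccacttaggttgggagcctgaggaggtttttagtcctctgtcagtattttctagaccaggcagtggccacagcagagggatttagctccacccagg
Zfp386: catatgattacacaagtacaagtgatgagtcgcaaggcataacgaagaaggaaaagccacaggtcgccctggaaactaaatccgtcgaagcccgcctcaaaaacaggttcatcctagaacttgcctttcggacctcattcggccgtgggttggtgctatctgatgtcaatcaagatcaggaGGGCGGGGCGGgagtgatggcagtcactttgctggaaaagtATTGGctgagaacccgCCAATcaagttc

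The Crip1 window held 3 GC boxes and the Crip2 window 4, with 13 and 26 CpG dinucleotides. Both LIM genes thus had GC-rich upstream sequence, at 67.2% and 66.8% GC, as was usual for the members. Zfp386 held 2 GC boxes that overlap by 1 base and 2 CCAAT boxes, with 12 CpG. Adam6b held 1 TATA box, no GC box and 0 CpG. Across 27025 promoters of the same length 33.0% held a GC box, 13.0% a TATA box and 34.5% a CCAAT box, and the median was 6 CpG. Of the 40 members 37 had an entry, of which 29 held a GC box (78.4%), 8 a CCAAT box and 1 a TATA box. The medians over these members were 24 CpG and 67.2% GC. The 27025 promoters were not limited to the tested genes. None of the 3 motifs was found in the windows of Crip1, Adam6b and Zfp386 alike, and a match of letters is a description only.

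The other 38 members were each uncalled in every comparison, and are described by their roles. Of the 18 members with more than 1 kept probe, 5 had probes of opposite sign in uMT versus WT (Brf1, Cdc42bpb, Klc1, Papola and Wdr20), and 8 had probes over 0.25 apart. Among kinases and phosphatase subunits, Vrk1, a nuclear kinase that acts on chromatin, was 0.52, -0.01, 0.16 and 0.15 on the WT arrays, 0.51 and 0.12 on the AID KO arrays and 0.27 and 1.09 on the uMT arrays from PLN and MLN. The uMT MLN array was the highest, and the uMT PLN array fell within the WT range. Its difference from WT was 0.48 ± 0.18 (adjusted p = 0.251), and in naive cells it was 0.01 ± 0.20. Without the uMT MLN array the difference from WT was 0.15, and without the uMT PLN array 0.80. Akt1, the kinase downstream of PI3 kinase, differed by -0.17 ± 0.13 against WT and 0.03 ± 0.15 in naive cells. Its dimmer second probe gave -0.33 and 0.04, and there both uMT arrays of total cells lay below all WT and AID KO arrays. Mark3 and Ppp2r5c differed by 0.15 and 0.23 against WT and by -0.04 and 0.07 in naive cells.

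Cdc42bpb, the kinase MRCK beta, was dim and well above background on 8 of 12 arrays. Its naive levels were -3.59 and -6.60 on the AID KO arrays and -4.44 and -4.51 on the uMT arrays, so both uMT arrays lay between the AID KO values. Its naive difference of 0.62 ± 0.68 (adjusted p = 0.952) was smaller than its standard error, and its second probe gave -0.21.

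Among receptors, ligands and death signalling, Jag2, a ligand of Notch receptors, had the largest positive difference from WT. Its levels were -3.06, -3.01, -3.46 and -3.50 on the WT arrays, -2.94 and -2.92 on the AID KO arrays and -2.32 and -2.95 on the uMT arrays from PLN and MLN. The uMT PLN array was the highest and the uMT MLN array lay below both AID KO arrays. The difference was 0.63 ± 0.21 against WT (adjusted p = 0.225) and -0.02 ± 0.24 in naive cells. Gpr132, a G protein-coupled receptor, was higher in uMT than in AID KO in total cells by 0.47 ± 0.13 (adjusted p = 0.265), and in naive cells its 4 arrays spanned 5.46 to 5.49. Siva1 and Traf3, partners of TNF receptor family members, differed by 0.21 and -0.14 from WT, and Ppp1r13b, which encodes the p53-binding ASPP1, by -0.07, with -0.29 at its second probe.

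Among the 6 transcription genes the largest differences from WT were those of Mta1 and Bcl11b, and in naive cells all 6 lay between -0.03 and 0.10. Bcl11b, a zinc finger factor needed for T cell commitment, was 3.97, 3.47, 3.99 and 3.41 on the WT arrays, 3.82 and 3.22 on the AID KO arrays, and 3.26 and 3.29 on the uMT arrays. The uMT arrays lay below the WT arrays, and the AID KO MLN array was lower still. Its difference was -0.44 ± 0.12 against WT (adjusted p = 0.179), -0.25 ± 0.13 against AID KO and 0.09 ± 0.13 in naive cells. Without the uMT MLN array the difference from WT was -0.19, and without the uMT PLN array -0.68. Yy1, Rcor1, Brf1 and Cdca4 differed by 0.16, 0.04, 0.01 and 0.07 from WT.

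The metabolic genes were Ckb, the brain-type creatine kinase, and Nudt14, a UDP-sugar pyrophosphatase. Ckb was -3.84 and -3.85 on the WT PLN arrays and -2.43 and -2.44 on the WT MLN arrays, -4.22 and -3.44 on the AID KO arrays and -3.62 and -2.75 on the uMT arrays from PLN and MLN. It thus separated the lymph node sites on every genotype, with the higher level in MLN, and its range over the 8 total-cell arrays, 1.79, was the largest of the 40 genes. Ckb was lower in AID KO than in WT by 0.69 and higher in uMT than in AID KO by 0.65 ± 0.20, with adjusted p-values of 0.148 and 0.289. In naive cells the difference was -0.42 ± 0.20 (adjusted p = 0.645), and its second probe gave 0.76, so the probes disagreed there. Nudt14 was higher than WT by 0.35 ± 0.09 in uMT (adjusted p = 0.184) and by 0.37 in AID KO (adjusted p = 0.161).

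Among trafficking genes Zfyve21, which encodes a FYVE-domain protein that binds endosomal lipid, was -2.25, -2.52, -1.96 and -2.40 on the WT arrays, -1.42 and -1.78 in AID KO and -2.16 and -2.04 in uMT. The AID KO arrays were the highest and the uMT arrays lay within the WT range. In naive cells it was -2.69 and -2.90 in AID KO against -3.51 and -3.06 in uMT, and neither the naive difference, -0.49 ± 0.19 (adjusted p = 0.534), nor that of AID KO from WT, 0.68 (adjusted p = 0.142), was called. Dync1h1, the heavy chain of cytoplasmic dynein, differed by -0.35 ± 0.14 from WT and by 0.07 in naive cells, and its second probe gave -0.68 and -0.20. Klc1, Pacs2 and Tecpr2 differed by -0.01, -0.06 and -0.23 from WT.

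Papola, the poly(A) polymerase alpha gene, was the other member with both uMT arrays below the range in total cells at its brightest probe. It was 4.45, 4.46, 4.51 and 4.57 on the WT arrays, 4.60 and 4.32 in AID KO and 4.16 and 4.09 in uMT. Its difference from WT was -0.37 ± 0.11 (adjusted p = 0.195), and its other 2 probes gave 0.01 and -0.29. In naive cells Papola was 4.31 on both AID KO arrays and 4.28 and 4.43 in uMT, so the groups overlapped. Eif5 and Trmt61a, the other genes of translation and RNA, differed by 0.10 and -0.17 from WT.

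The rest moved little. Hsp90aa1, the stress-inducible HSP90, differed by 0.18 ± 0.19 from WT and was 5.94 and 5.93 in naive uMT against 5.68 and 5.63 in naive AID KO, a difference of 0.28 ± 0.21 (adjusted p = 0.873). Bag5, a co-chaperone of HSP70, differed by 0.08 from WT and by -0.26 ± 0.11 in naive cells (adjusted p = 0.584). Evl, Inf2 and Cep170b, genes of the actin and microtubule cytoskeleton, lay within 0.07 of WT, and the dimmer second probe of Evl gave -0.28. Xrcc3 and Cinp, genes of DNA repair and replication, differed by -0.05 and 0.04. Wdr20, an activator of ubiquitin proteases, differed by 0.29 from WT at its brightest probe and by -0.41 at the other, so it has no settled direction, and Ankrd9 and Btbd6 differed by -0.04 and 0.05.

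Pld4, an endolysosomal exonuclease known from B cells and plasmacytoid dendritic cells, was dim and well above background on 4 of 12 arrays. It was -4.45, -4.52, -5.08 and -5.14 on the WT arrays, -4.93 and -4.61 in AID KO, and -4.51 and -5.84 on the uMT arrays from PLN and MLN. The uMT MLN array was the lowest and the uMT PLN array lay within the WT range. Its difference from WT was -0.37 ± 0.25 (adjusted p = 0.466), and on the naive arrays it was not well above background.

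**Figure D4:**
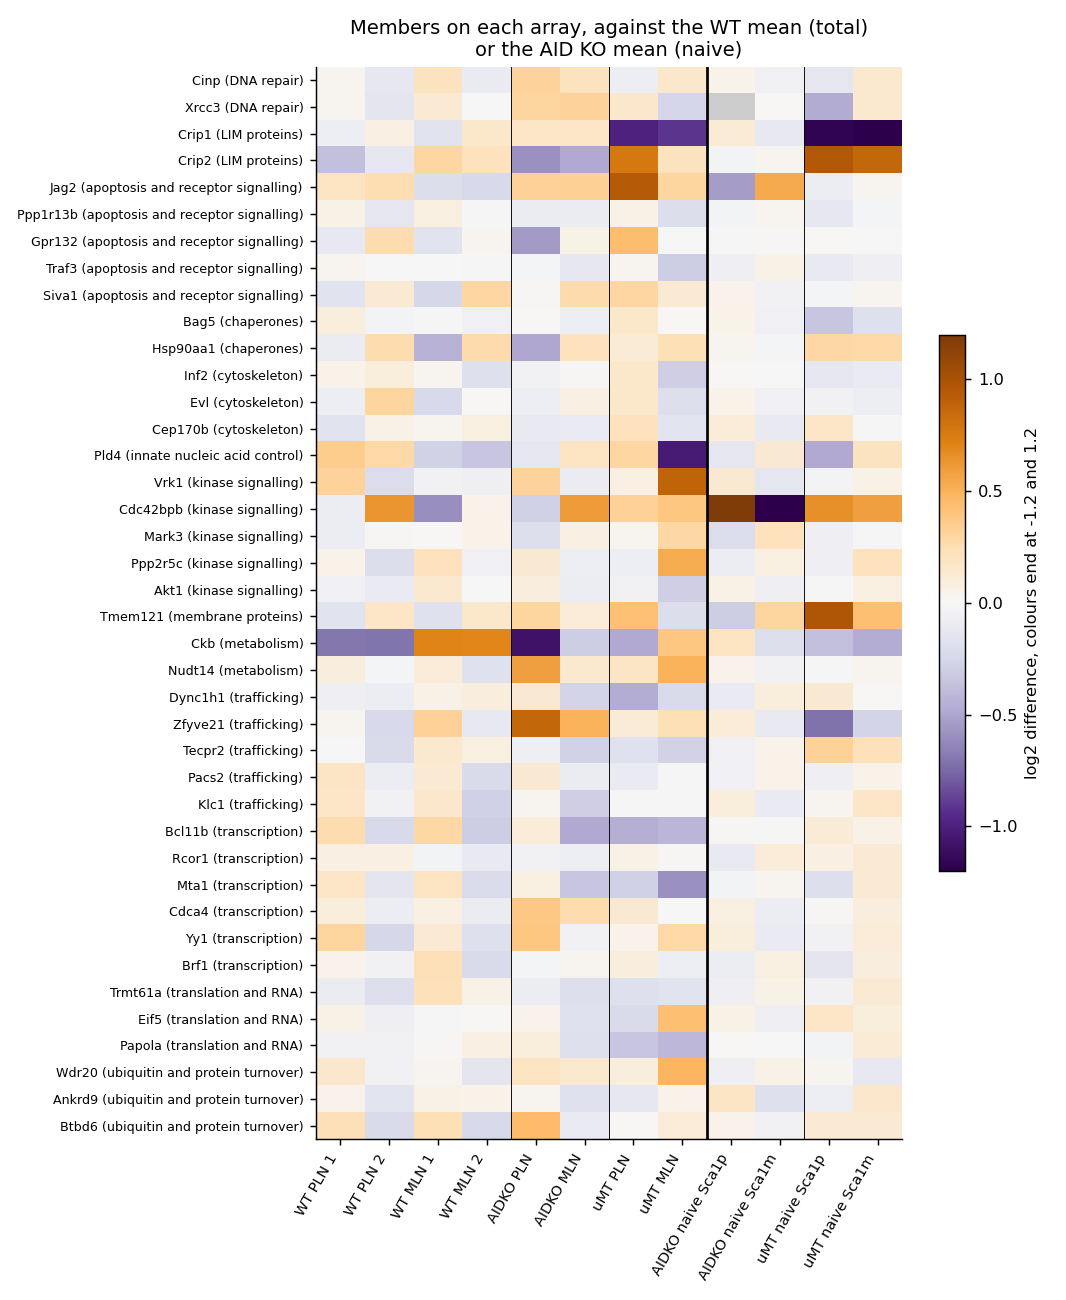
The 40 members on the 12 arrays, ordered by role, as the log2 difference from the WT mean (8 total-cell arrays) or from the naive AID KO mean (4 naive arrays), with orange higher and purple lower. The grey field is the flagged Xrcc3 spot. Crip1 is the single row that is dark purple on all 4 uMT arrays, while most rows are pale or differ between the 2 uMT arrays of total cells.

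The lymph node site was tested as the difference of uMT from WT in MLN minus that in PLN. Limma called 0 of 40 members, against 0.00777% of all features, and at an unadjusted p under 0.05 there were 7 of 40, or 17.5%, against 9.32%. These were Bcl11b, Crip2, Mta1, Ppp1r13b and Xrcc3, with a lower difference in MLN, and Eif5 and Hsp90aa1, with a higher one. The site term was negative for 27 of the 40 genes, with a median of -0.18. Among the 36 other distal genes it was negative for 17, with a median of 0.01. Over all features it was negative for 12428 of 25741, with a median of 0.02. Over named genes of other chromosomes it was negative for 7283 of 13427, with a median of -0.04. Each site has a single uMT array, and the uMT MLN array stood on slide 1 and the uMT PLN array on slide 2. The erythroid genes were highest on the uMT array at both sites, and their part in the site term was not tested.

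The cell population was tested as the difference of uMT from AID KO in naive cells minus that in total cells. The naive arrays were all from PLN and the total-cell arrays from both sites, so cell population and site cannot be told apart here. Limma called 0 of 40 members, against 0.214% of all features, and 2 of 40, or 5%, at an unadjusted p under 0.05, against 11.4%. These were Ckb, at -1.06 with an adjusted p of 0.235, and Gpr132, at -0.47 with an adjusted p of 0.430. In naive cells the members' median absolute difference was 0.07, against 0.13 over all features and 0.10 over named genes of other chromosomes. There 36 of the 40 genes differed by at most 0.5. The 4 that differed more were Crip1, Crip2, Tmem121 and Cdc42bpb, of which the last 2 were dim.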

How the data were processed

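Gene expression was measured on 12 Agilent arrays of 1 colour. Per the file headers, the authors' scanner files give spot intensity from Agilent Feature Extraction 11.0.1.1, subtracted for background and not normalized between arrays. They also hold other values, deposited flags of 0 or 1 for spots well above background or outlying. The authors' deposited series matrix holds log2 values, which was used only as an alternative because each slide was quantile normalized apart. Processed intensities were put on the log2 scale and shifted to an equal 75th percentile. Between 61 and 342 spots an array with an outlier flag were left out, and none was saturated. Of 56605 probes 32994 had 1 symbol through the RefSeq table of GRCm38.p6, 0 had several and 23611 stayed unnamed. The files' build is older, so that table gave names and gene order only. The brightest probe well above background on at least 2 arrays stood for a gene, and 18 members had more than 1 such probe.

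Differences came from 1 fit of limma 3.58.1 (R 4.3.3) over all arrays, with total-cell terms for lymph node, slide and both genotypes and naive-cell terms for uMT and Sca1p, leaving 4 residual degrees of freedom (3 with a site interaction). Two-sided p-values were adjusted by Benjamini-Hochberg across every feature, with a threshold of 0.05. On simulated data the fit was checked to recover known changes. The number of arrays limits the precision. Each member past the threshold or outside the range in both populations, and the 3 largest rises and falls in uMT versus WT and in naive cells, are given array by array, and genes given so after their values were seen are Papola, Pld4, Tedc1 and Tex22. The members and lists were chosen with earlier results of these data known. The gene targeted in AID KO is not reported here, so the AID KO labels were not checked against it in the text.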

Additional observations from a re-analysis of the deposited data

How the results depend on the processing

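Genes called among the 40: in uMT versus WT the count rose from 0 to 1 (Crip1) with normexp, quantile normalization, the deposited series matrix or a filter of 6 arrays. Against AID KO in total cells it fell from 1 to 0 with no filter on dim probes, no slide term, matched pair blocks or total-cell arrays only, and leaving out 1 array gave 0 to 0. In naive cells it fell from 1 to 0 with no filter or naive arrays only, and leaving out 1 array gave 0 to 0. AID KO versus WT and both tests of dependence stayed at 0. Genes outside the range numbered 2 in total cells, 4 with normexp, 5 with quantile normalization, 5 with the mean of probes, and 2 to 16 with 1 array left out. In naive cells they numbered 13, and 22 to 28 with 1 array left out. Over all features the calls of 9, 81, 230 and 90 in uMT versus WT, uMT versus AID KO, AID KO versus WT and naive cells ranged over 0 to 66, 1 to 167, 1 to 468 and 0 to 213, those of the site term (2) over 0 to 7 and those of the population term (55) over 0 to 165. The headers name no mean signal, so normexp used the median signal. The range rule was not run on the series matrix for total cells, because its slides differ in scale. The sample titles name the WT PLN array that is the control of the AID KO PLN array and that of the uMT PLN array, and these pairs share a slide; the MLN arrays were paired by site and slide. With these pairs as blocks (3 residual degrees of freedom) the calls over all features went from 9 to 4, 81 to 1 and 230 to 15 in uMT versus WT, uMT versus AID KO and AID KO versus WT. No analysis by replicate number was possible because the labels give none. No call of Crip1, Adam6b or Zfp386 turned its direction under any setting. Signal over background limits Adam6b, Cdc42bpb, Pld4 and Tmem121.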
